A study of Mus musculus with 6 samples.

Results

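The JmjC histone demethylases described here are 10 genes, taken from the deposited count table by their symbols: Kdm2a, Kdm2b, Kdm3a, Kdm3b, Kdm4a, Kdm4b, Kdm4c, Kdm5b, Kdm6b and Jmjd6. All 10 were found among the 52459 symbols of the table, and all 10 passed the filter on low counts that left 19565 genes for testing. The libraries were bulk RNA sequencing of whole brain from C57BL/6 mouse embryos at E14.5, with 3 Mfsd7c-/- knockout libraries (KO) and 3 wild-type libraries (WT). The type of knockout allele, the deleted part of the gene and the litters are not stated in the sources used, so p-values cover only the spread among 6 samples, part of which may be technical. The comparison asks which of these transcripts differ between knockout and wild-type brains.

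JmjC enzymes are dioxygenases that hold iron and use molecular oxygen and 2-oxoglutarate, with succinate as a by-product. The histone demethylases among them hydroxylate a methyl group, which then leaves the protein. They act on lysines that mark active or silent chromatin, some of them shared between subfamilies. Because they need oxygen they are studied with the response to low oxygen, and Kdm3a and Kdm4b are known in cultured cells as transcriptional targets of the hypoxia-inducible factor (HIF). In the developing brain several of them act in neural progenitors, with Kdm6b among the best known for its part in neuronal differentiation.

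The promoter windows of the 3 members with the largest differences, Kdm3a, Jmjd6 and Kdm5b, are shown with that of Kdm4a, the member with the smallest. Each window runs from 250 bases before to 50 bases after a RefSeq start site on GRCm38.p6, and where a gene had several windows the one nearest its GENCODE M21 start was taken. Capitals mark the core letters bound by HIF, ACGTG or GCGTG, on either strand (a match on the other strand reads CACGT or CACGC).
Kdm3a, chr6:71632868-71633167, minus strand: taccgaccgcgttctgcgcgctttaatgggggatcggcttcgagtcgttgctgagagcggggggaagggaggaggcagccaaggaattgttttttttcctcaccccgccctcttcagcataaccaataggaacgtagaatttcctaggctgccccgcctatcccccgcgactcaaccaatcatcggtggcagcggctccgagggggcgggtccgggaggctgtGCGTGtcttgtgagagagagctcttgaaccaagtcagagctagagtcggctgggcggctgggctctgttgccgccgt
Jmjd6, chr11:116843400-116843699, minus strand: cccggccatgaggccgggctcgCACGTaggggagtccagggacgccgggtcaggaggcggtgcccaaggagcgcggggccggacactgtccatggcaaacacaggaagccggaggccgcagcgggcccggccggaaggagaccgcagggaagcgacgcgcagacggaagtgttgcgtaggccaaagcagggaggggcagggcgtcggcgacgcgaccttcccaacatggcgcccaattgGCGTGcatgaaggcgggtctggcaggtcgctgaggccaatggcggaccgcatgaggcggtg
Kdm5b, chr1:134559928-134560227, plus strand: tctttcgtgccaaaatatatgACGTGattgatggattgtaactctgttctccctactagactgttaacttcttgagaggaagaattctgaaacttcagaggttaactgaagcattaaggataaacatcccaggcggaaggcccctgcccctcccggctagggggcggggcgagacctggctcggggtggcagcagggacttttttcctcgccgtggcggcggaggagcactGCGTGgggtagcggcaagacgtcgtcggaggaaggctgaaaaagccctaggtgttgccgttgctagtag
Kdm4a, chr4:118179994-118180293, minus strand: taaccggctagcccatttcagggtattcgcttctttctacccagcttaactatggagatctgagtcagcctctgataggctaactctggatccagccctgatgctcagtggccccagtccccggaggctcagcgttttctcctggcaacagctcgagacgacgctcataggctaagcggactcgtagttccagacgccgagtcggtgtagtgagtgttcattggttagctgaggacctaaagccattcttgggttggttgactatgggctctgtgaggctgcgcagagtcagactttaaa
In these windows Kdm3a held 1 match, Jmjd6 and Kdm5b held 2 each, and Kdm4a held 0. The last match of each gene lay close before the start site, beginning 27 bases upstream of it in Kdm3a, 19 in Kdm5b and 11 in Jmjd6. Of the other members, Kdm2b held 1 match and Kdm4c held 0, while Kdm2a, Kdm3b, Kdm4b and Kdm6b were not matched to a window. Among all 32851 windows of the same length 43.8% held a match, so the 4 of 6 matched members with one are a description of letters and not of binding.

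Libraries summed to between 43784619 and 50549673 counts, and each member had between 1551 (Kdm4c, WT replicate 1) and 14353 counts (Kdm5b, KO replicate 3) per library, so counting error was at most 2.54% of any value. Mfsd7c itself had 119, 129 and 130 counts in KO replicates 1, 2 and 3, against 206, 291 and 259 in WT replicates 1, 2 and 3. Markers of the labelled tissue were present in every library, with 7 radial glia and progenitor markers summing to 1961 to 2030 CPM (counts per 1000000 counts of the TMM-scaled library) in KO and 1957 to 2036 CPM in WT, and 7 neuron markers to 5734 to 6333 CPM in KO and 5728 to 6654 CPM in WT. The libraries also differed in tissue content. Epidermal markers (6 genes) summed to 260, 10.7 and 49.7 CPM in KO replicates 1, 2 and 3, against 215, 10.2 and 4.55 CPM in the WT replicates. Caudal Hox genes (8 genes) summed to 122 and 27.1 CPM in WT replicates 2 and 3 and to at most 1.94 CPM elsewhere. Embryonic beta-globins made up 23.6% of beta-globin counts in KO replicate 2 and 23.3% and 26.5% in WT replicates 2 and 3, and at most 5.03% in the other libraries. WT replicate 2 was the 1 library with Xist at a high level (82198 counts, against at most 27 elsewhere).

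All 10 members had a positive log2 fold change in KO brains. When edgeR's quasi-likelihood test was run over all 19565 genes, 0 of 10 passed the FDR threshold of 0.05. It called 0.659% of all genes in either direction. The members were chosen with earlier results of these libraries known. Their shares beside those of all genes are therefore a description and not independent evidence about the family. A positive log2 fold change was seen in 47.4% of all genes tested. The median over the members was 0.18 on the log2 scale, against -0.01 over all genes tested. The 3 KO libraries lay above the 3 WT libraries for 7 members (all but Kdm2b, Kdm3b and Kdm4a), as they did for 7.84% of genes tested. An unadjusted p under 0.05 was reached by 5 members (Kdm5b, Kdm3a, Jmjd6, Kdm4b and Kdm2a), against 8.09% of genes tested in either direction. The call depended on the tool. DESeq2's Wald test on the same counts called 3 members higher, Kdm3a, Kdm5b and Jmjd6, and 1.27% of its genes higher. The authors' deposited table, also from DESeq2, holds the same 3 at an adjusted p under 0.05, with 1.22% of its genes higher, and rests on the same 6 libraries. Limma-voom called 0 members, and 0.603% of genes in either direction.

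**Figure D1:**
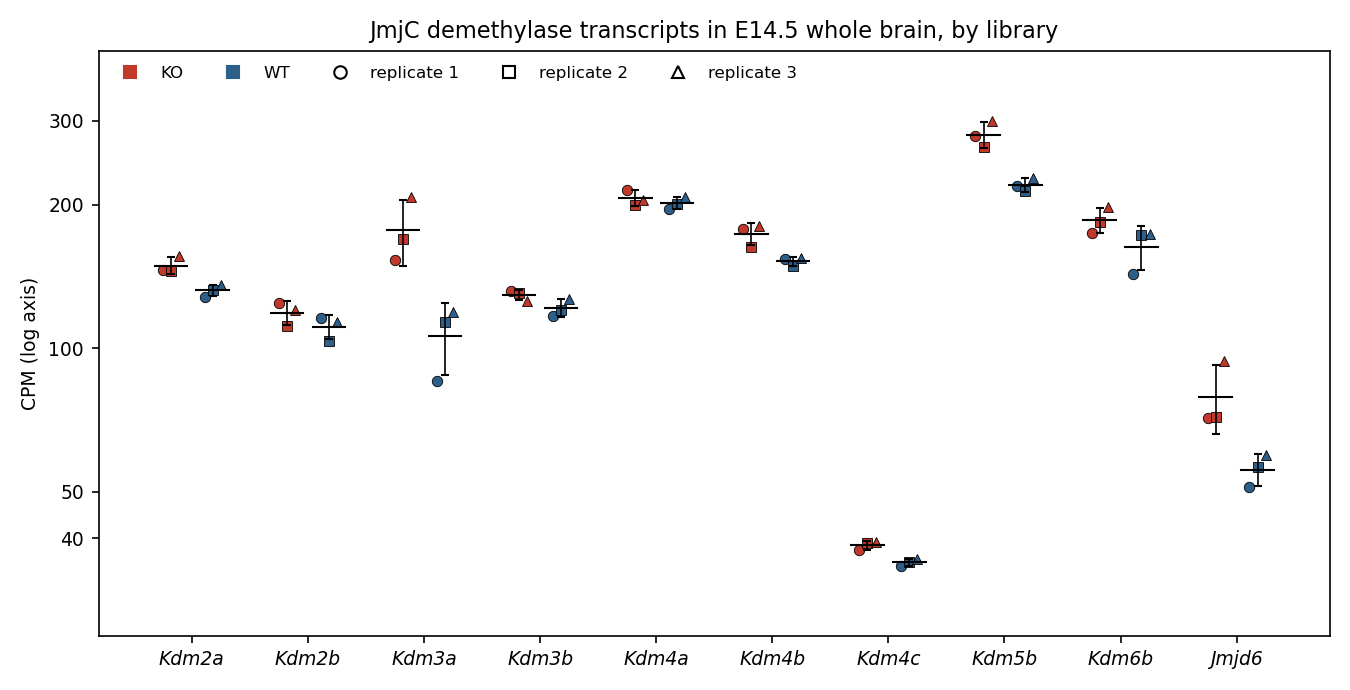
CPM (log axis) of the 10 members in each library, KO to the left of WT for each gene, with the mean and SD of 3 libraries as black lines and the replicate number as the symbol. The KO points lie above all WT points for 7 of the 10 genes, with the widest distance in Kdm3a, and overlap them in Kdm2b, Kdm3b and Kdm4a.

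Kdm3a and Kdm3b form the subfamily that removes mono- and dimethylation from lysine K9 of histone H3, a silencing mark. Kdm3a (ENSMUSG00000053470.13, chromosome 6, 71588972 to 71632990 on GRCm38) had the largest difference of the 10. It was at 153, 169 and 208 CPM in KO replicates 1, 2 and 3, against 85.4, 113 and 119 CPM in WT replicates 1, 2 and 3. The groups did not overlap, but both were wide, with a CV of 15.9% in KO and 17.1% in WT. The means were 177 ± 28.2 CPM in KO and 106 ± 18.1 CPM in WT (SD, n = 3 each), a 1.67-fold difference with a 95% interval of 1.31 to 2.12. The log2 fold change was 0.74 (SE 0.150, edgeR adjusted p = 0.125). In DESeq2's Wald test it was 0.74 (SE 0.141, adjusted p = 2.49e-05), and the authors' deposited table gives 0.74 (SE 0.141, adjusted p = 2.57e-05).

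Kdm3b (ENSMUSG00000038773.11, chromosome 18) was at 132, 130 and 126 CPM in KO libraries, against 117, 120 and 127 CPM in WT libraries. Its groups overlapped, and the 95% interval of its fold change ran from 0.978 to 1.16. Within each library, Kdm3a counts per kilobase of exon stood at 1.99, 2.23 and 2.83 times those of Kdm3b in KO replicates 1, 2 and 3, and at 1.25, 1.61 and 1.61 times in the WT replicates. That ratio does not depend on the scaling between libraries, and its groups did not overlap either. In the annotation, 24.6% of the exon bases of Kdm3b also lie in the opposite-strand lincRNA Gm26538, which had 0 counts in 5 libraries and 1 in WT replicate 3. Whether reads there were counted for Kdm3b is not stated in the sources used.

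**Figure D2:**
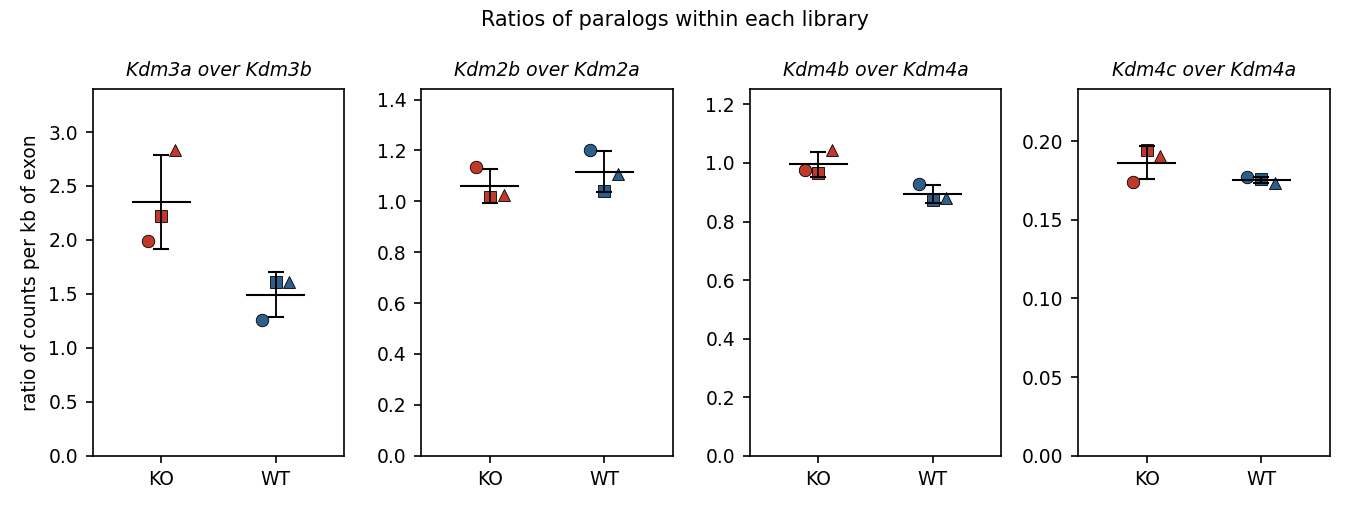
Ratio of counts per kilobase of exon between members of the same subfamily in each library, KO left of WT, with mean and SD of 3 libraries in black and the replicate number as the symbol (circle 1, square 2, triangle 3). The ratio of Kdm3a to Kdm3b lies between 1.99 and 2.83 in KO and between 1.25 and 1.61 in WT, and that of Kdm4b to Kdm4a is also apart, while the other pairs overlap.

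Kdm5b, which removes methyl groups from lysine K4 of histone H3, the mark of active promoters, had the most counts of the 10 and the lowest p. Kdm5b (ENSMUSG00000042207.17, chromosome 1, 134560171 to 134635285) was at 278, 264 and 300 CPM in KO replicates 1, 2 and 3, against 219, 213 and 227 CPM in the WT replicates. The lowest KO library stood above the highest WT library, and each group was narrow, with a CV of 6.44% in KO and 3.23% in WT. The means were 280 ± 18.1 CPM in KO and 220 ± 7.09 CPM in WT (SD, n = 3 each). That is a 1.28-fold difference (95% interval 1.15 to 1.41). The log2 fold change was 0.35 (SE 0.0657, edgeR adjusted p = 0.0739), and in DESeq2's Wald test 0.36 (SE 0.0770, adjusted p = 0.000497). It passed in edgeR without WT replicate 1 (adjusted p = 0.0312). Without any other single library it did not pass, and its adjusted p was highest, at 0.409, without KO replicate 3.

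Jmjd6 hydroxylates lysines of splicing proteins, and its activity as a demethylase of histone arginines is debated. Jmjd6 (ENSMUSG00000056962.11, chromosome 11, 116837432 to 116843449) was at 71.6, 71.8 and 94.1 CPM in KO replicates 1, 2 and 3, against 51.1, 56.4 and 59.7 CPM in WT replicates 1, 2 and 3. The groups did not overlap, and KO replicate 3 stood well above the other KO libraries. The means were 79.1 ± 12.9 CPM in KO and 55.7 ± 4.31 CPM in WT (SD, n = 3 each), a 1.42-fold difference (95% interval 1.19 to 1.70). The log2 fold change was 0.51 (SE 0.113, edgeR adjusted p = 0.155; DESeq2 Wald adjusted p = 0.00293), and 0.36 without KO replicate 3 (edgeR adjusted p = 0.388). The opposite-strand gene Mettl23 shares 3.66% of the exon bases of Jmjd6, and its counts were 1159, 1284 and 1305 in KO, against 1310, 1266 and 1219 in WT.

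Over 18 alternative fits, which are other scalings, filters, tools, covariates and sets of libraries, Kdm5b passed in 7, Kdm3a in 3 and Jmjd6 in 2. Kdm6b passed in 1, and the remaining 6 members in 0. Kdm3a was lowest at 0.60 without WT replicate 1 and highest at 1.05 without both WT replicates 2 and 3, on the log2 scale, and Kdm5b stayed between 0.30 and 0.40. The plot of sizes and adjusted p-values over these fits gives each value.

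**Figure D3:**
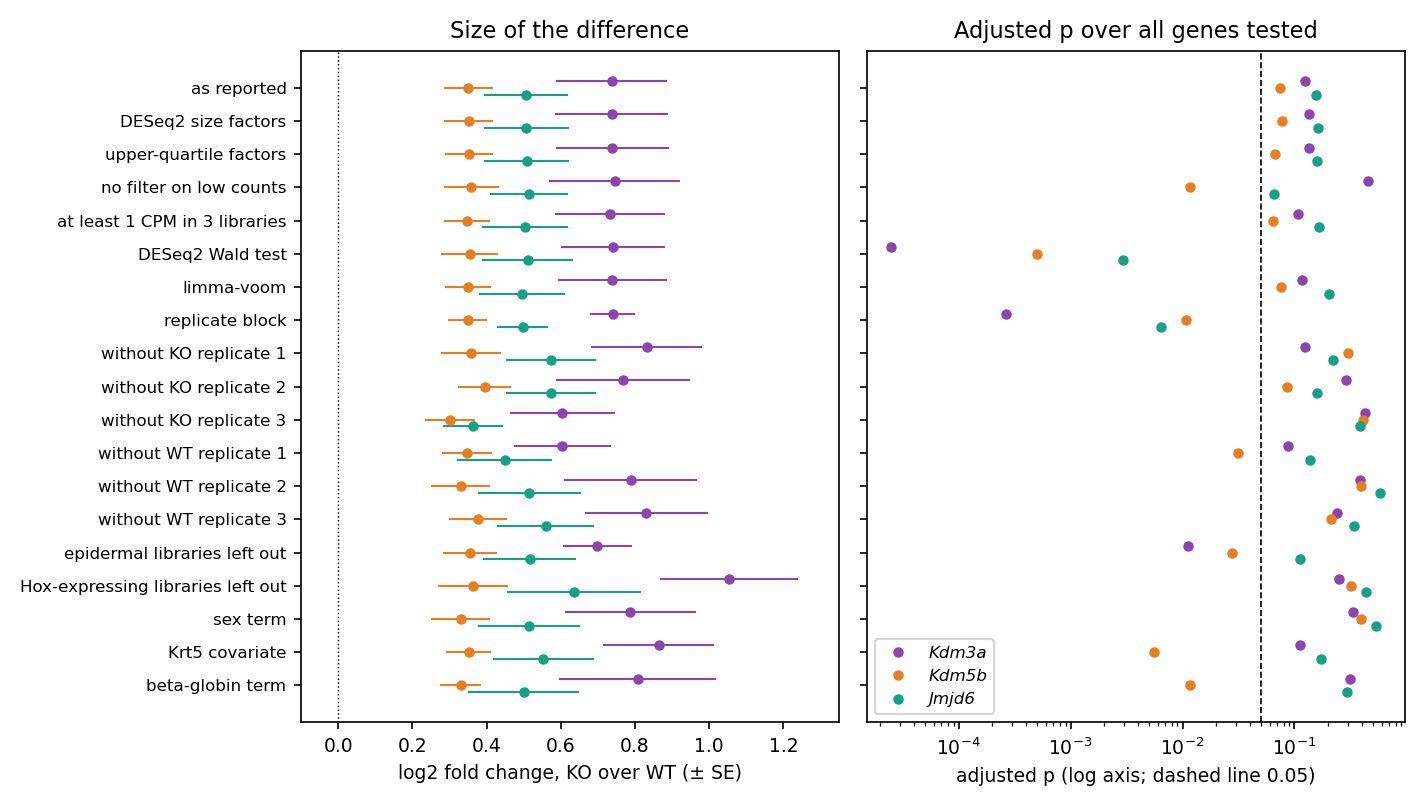
Log2 fold change with its SE (left) and adjusted p on a log axis (right) of Kdm3a, Kdm5b and Jmjd6 in the reported edgeR fit and in 18 alternative fits, with a dashed line at 0.05. The sizes keep their sign throughout, between 0.60 and 1.05 for Kdm3a, 0.30 and 0.40 for Kdm5b, and 0.36 and 0.63 for Jmjd6, while the adjusted p moves across the line.

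The Kdm4 enzymes remove trimethylation from lysines K9 and K36 of histone H3. Kdm4b (chromosome 17, 56326062 to 56402870) was at 177, 163 and 180 CPM in KO libraries, against 154, 148 and 154 CPM in WT libraries. The groups did not overlap, and the fold change was 1.14 (95% interval 1.04 to 1.25, edgeR adjusted p = 0.374). Kdm4c, the scarcest member, was at 37.7, 39.1 and 39.2 CPM in KO, against 35.0, 35.6 and 36.2 CPM in WT. These groups were apart as well but close, with a 1.09-fold difference and an interval of 0.988 to 1.19. Kdm4a was at 215, 199 and 204 CPM in KO, against 196, 201 and 207 CPM in WT. Its groups overlapped, and the interval of its fold change ran from 0.937 to 1.12. Within libraries the ratio of Kdm4b to Kdm4a per kilobase of exon was 0.975, 0.967 and 1.04 in KO, against 0.928, 0.873 and 0.880 in WT, with no overlap. The ratio of Kdm4c to Kdm4a overlapped between the groups (means 0.187 ± 0.0107 in KO and 0.176 ± 0.00191 in WT, SD, n = 3 each).

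Kdm2a and Kdm2b remove dimethylation from lysine K36 of histone H3 and bind unmethylated CpG islands through a zinc finger, and Kdm2b also brings a Polycomb complex (PRC1.1) to them. Kdm2a was at 146, 145 and 156 CPM in KO libraries, against 128, 132 and 136 CPM in WT libraries. The groups were apart, with a fold change of 1.13 (95% interval 1.03 to 1.23, edgeR adjusted p = 0.404). Kdm2b was at 125, 111 and 120 CPM in KO, against 116, 104 and 113 CPM in WT, with overlapping groups and a fold change of 1.07 (95% interval 0.965 to 1.19). Rnf34, on the opposite strand, shares 5.77% of the exon bases of Kdm2b. The ratio of Kdm2b to Kdm2a within libraries overlapped too, at 1.06 ± 0.0663 in KO and 1.12 ± 0.0807 in WT (SD, n = 3 each).

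Kdm6b removes methylation from lysine K27 of histone H3, the mark laid down by Polycomb. It was at 175, 184 and 198 CPM in KO replicates 1, 2 and 3, against 143, 172 and 174 CPM in WT replicates 1, 2 and 3. The lowest KO library stood just above the highest WT library, and WT replicate 1 lay below the other WT libraries. Its fold change was 1.14 (95% interval 0.992 to 1.30, edgeR adjusted p = 0.641), and it passed in a fit with a Krt5 covariate (edgeR adjusted p = 0.0469).

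**Figure D4:**
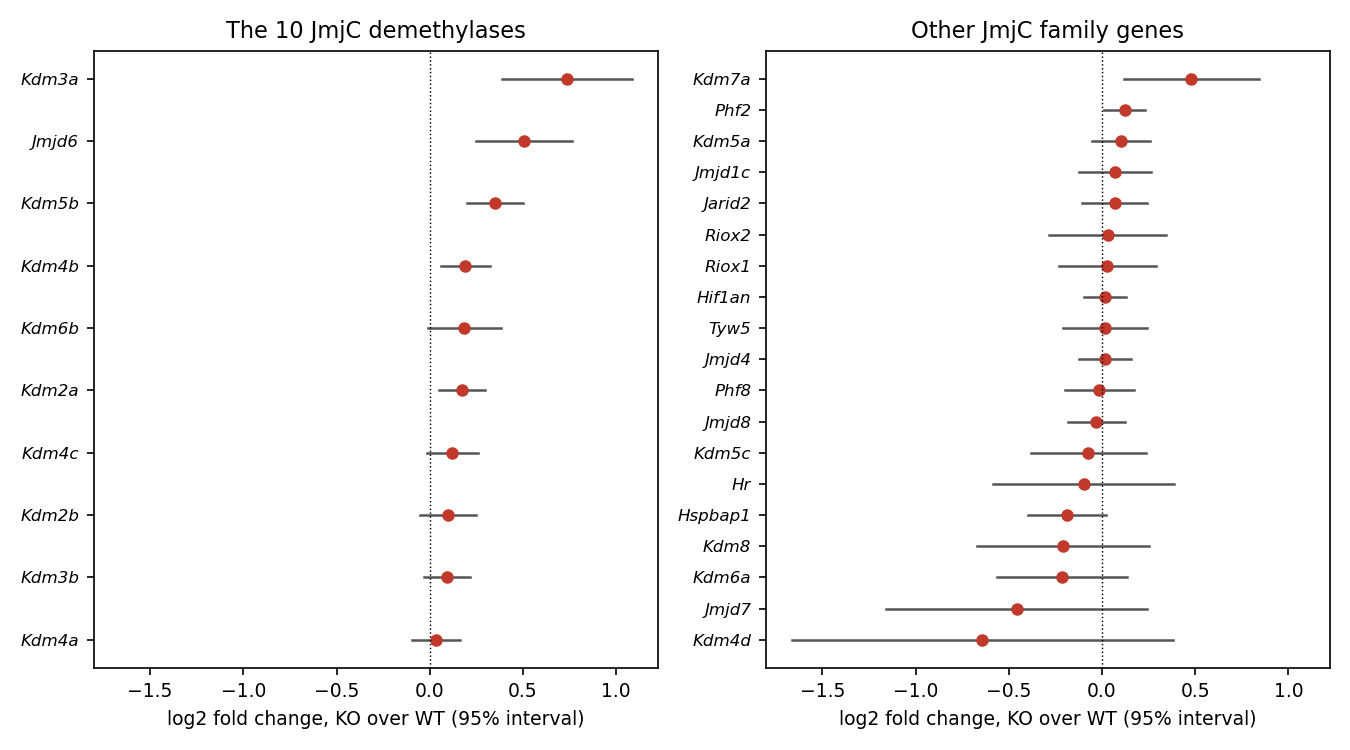
Log2 fold changes (points) with 95% intervals (lines) from edgeR, KO over WT, for the 10 members on the left and 19 other JmjC family genes on the right. The members run from 0.03 for Kdm4a to 0.74 for Kdm3a, all above 0, while the other genes lie on both sides of 0. Both lists were chosen with earlier results of these data known. Kdm5d and Uty, at 0 counts in WT replicate 2, are not drawn.

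The libraries with the highest and lowest level of each member are given as a description. No share over all genes was computed for these counts. KO replicate 3 held the highest level of 7 members and KO replicate 1 that of the other 3 (Kdm2b, Kdm3b and Kdm4a). WT replicate 1 held the lowest level of 7 and WT replicate 2 that of the other 3 (Kdm2b, Kdm4b and Kdm5b). The 7 members highest in KO replicate 3 are those whose groups do not overlap. For them the highest level had to fall in a KO library and the lowest in a WT library. Tissue content of these libraries differed as given above. Endothelial markers (7 genes) summed to 286, 298 and 314 CPM in KO and to 234, 284 and 276 CPM in WT. The groups were apart by a narrow gap, and edgeR called 2 of the 7 higher and 1 lower in KO. DESeq2 called 5 of the 7 and limma-voom 3. An unadjusted edgeR p under 0.05 was reached by 5, against 8.09% of all genes. Erythroid markers (9 genes) summed to 3535, 1768 and 3605 CPM in KO replicates 1, 2 and 3, against 2480, 1154 and 1246 CPM in the WT replicates. Those groups overlapped, KO replicate 3 was highest, 8 of the 9 genes had a positive log2 fold change (median 0.82), and edgeR called 0 of them, DESeq2 called 0 and 1 had an unadjusted p under 0.05. Markers of meninges and fibroblasts (5 genes) summed to 787, 579 and 598 CPM in KO and to 1220, 497 and 479 CPM in WT, with WT replicate 1 highest. Markers of microglia and macrophages (8 genes) summed to 88.0, 87.9 and 108 CPM in KO and to 96.2, 85.5 and 84.99 CPM in WT, with KO replicate 3 highest. In bulk tissue a change in the number of cells of a type and a change in RNA per cell cannot be told apart, and the part of these differences in the members' values was not tested.

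Values within the sets of libraries with a low and a high embryonic share of beta-globin counts are given as a description, since each set has 1 library in one of its arms. For the 7 members whose groups do not overlap, a higher KO value in both sets follows from that and is no further support. Among the libraries with a low share Kdm3a was at 153 and 208 CPM in KO replicates 1 and 3, against 85.4 CPM in WT replicate 1. Among those with a high share it was at 169 CPM in KO replicate 2, against 113 and 119 CPM in WT replicates 2 and 3. The differences in mean log2 CPM were 1.06 and 0.54. Jmjd6 differed by 0.68 and 0.31 on the same scale, Kdm5b by 0.40 and 0.26, and Kdm6b by 0.38 and 0.09. For the 3 members with overlapping groups the differences were 0.14 and 0.08 (Kdm3b), 0.08 and 0.04 (Kdm2b), and 0.10 and -0.03 (Kdm4a).

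Compared per kilobase of exon, Kdm4a and Kdm4b were the most abundant members and Kdm4c the scarcest. In WT brains the mean levels were 34.8 ± 0.993 CPM per kilobase for Kdm4a, 31.1 ± 0.657 for Kdm4b and 23.5 ± 2.50 for Kdm6b (SD, n = 3 each). Kdm5b at 13.3 ± 0.428, Kdm3a at 12.9 ± 2.21 and Jmjd6 at 11.9 ± 0.917 CPM per kilobase followed, and the WT libraries of Kdm3a overlapped those of both neighbours. Kdm2b at 10.2 ± 0.589, Kdm2a at 9.15 ± 0.263, Kdm3b at 8.61 ± 0.374 and Kdm4c at 6.11 ± 0.108 CPM per kilobase closed the order, with Kdm2a and Kdm3b overlapping. In KO brains Kdm3a, at 21.5 ± 3.43 CPM per kilobase, stood above Kdm5b at 16.9 ± 1.09 with no overlap, and overlapped Kdm6b at 26.7 ± 1.66 (SD, n = 3 each). The order depends on the length used. With the longest transcript in place of all exons, a choice added after seeing the data, Kdm5b in WT was at 25.2 ± 0.813 CPM per kilobase, above Kdm6b at 24.5 ± 2.62, and Jmjd6 was ninth. The KO comparisons of Kdm3a with Kdm5b and Kdm6b are for exon length only and need not hold with the longest transcript.

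Summed over the 10 members, the level was 187, 182 and 202 CPM per kilobase in KO replicates 1, 2 and 3, against 154, 162 and 168 in the WT replicates. Of the difference between the means, 28.7 CPM per kilobase, Kdm3a made up 30.0%, Jmjd6 17.4%, Kdm4b 15.3% and Kdm5b 12.8%. The order after Kdm3a depends on the length used. With the longest transcript, Kdm3a made up 35.3%, Kdm5b 16.9%, Jmjd6 12.5% and Kdm4b 11.4%.

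The 5 genes whose profile over the 6 libraries was nearest to that of Kdm5b, the member with the lowest p, were Nadk2, Scpep1, Plek, Asph and Spred1. Likeness was the mean absolute difference in log2 CPM centred on each gene, over 13646 genes with a mean of at least 1 CPM, and it was 0.0135 for Nadk2 and 0.0347 for Spred1. Their own log2 fold changes ran from 0.28 for Spred1 to 0.41 for Plek, and none passed in edgeR (lowest adjusted p = 0.0574, Nadk2). Because they were chosen by likeness to Kdm5b over the same libraries, fold changes near its own follow from the choice.

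Members and lists were chosen with earlier results of these data known, so the contrast given here is a description only. The other JmjC genes did not share the members' common sign. Of 21 tested, 0 were called in edgeR, 12 had a positive log2 fold change and the median was 0.02, while 2 had an unadjusted p under 0.05 and DESeq2 called 0. Those 2 were Kdm7a, a demethylase of lysines K9 and K27 of histone H3, and Phf2. Of all genes tested, 47.4% had a positive log2 fold change and 8.09% an unadjusted p under 0.05. Kdm7a was at 66.7, 76.4 and 90.3 CPM in KO replicates 1, 2 and 3, against 44.2, 58.0 and 65.2 CPM in WT replicates 1, 2 and 3. As with Kdm3a, the groups did not overlap, KO replicate 3 was highest and WT replicate 1 lowest. Its log2 fold change was 0.48 (SE 0.156, edgeR adjusted p = 0.446). Phf2 stood at 0.12 on the same scale (SE 0.0487, edgeR adjusted p = 0.565), and Kdm5a, the closest relative of Kdm5b on the list, stood at 0.10 (SE 0.0680, edgeR adjusted p = 0.758).

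The sex-linked relatives followed the 1 Xist-expressing library. Kdm6a, the X-linked relative of Kdm6b, was at 50.5, 50.7 and 49.5 CPM in KO libraries, against 45.7, 73.6 and 55.4 CPM in WT replicates 1, 2 and 3. Kdm5c was at 150, 156 and 150 CPM in KO, against 128, 196 and 156 CPM in WT. Their Y-linked counterparts Uty and Kdm5d had 0 counts in WT replicate 2 and between 1193 and 3964 counts in every other library. The 10 members are all autosomal.

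The enzymes that add or remove the same marks by other means gave 0 calls in edgeR, DESeq2 and limma-voom. Among H3 methyltransferases 0 of 6 for lysine K4, 0 of 6 for K9, 0 of 4 in the K27 complex and 0 of 5 for K36 passed. At an unadjusted edgeR p under 0.05 these lists held 0, 0, 1 and 1 genes, in the same order, against 8.09% of all genes. The lowest p-values of these lists belonged to Setd1a, Ehmt1, Suz12 and Setd2, with log2 fold changes of -0.13 (SE 0.0958), 0.05 (SE 0.0598), 0.14 (SE 0.0519) and 0.14 (SE 0.0529). Kdm1a and Kdm1b, demethylases of the amine oxidase type that need no 2-oxoglutarate, had log2 fold changes of 0.08 (SE 0.0589) and -0.0006 (SE 0.0564). Neither reached an unadjusted p under 0.05. Of 9 PRC1.1 partners of Kdm2b 0 passed and 4 had an unadjusted p under 0.05, in both directions, against 8.09% of all genes. Bcor was at 0.24 (SE 0.0847) and Rybp at 0.20 (SE 0.0772) on the log2 scale, and the other two, named after their values were seen, were Bcorl1 at 0.18 (SE 0.0781) and Ring1 at -0.23 (SE 0.0912). Of the 9, 5 had a positive log2 fold change, and the median was 0.01. Of 10 enzymes that make or use 2-oxoglutarate, succinate or fumarate, 0 passed in any of the 3 tools and 0 had an unadjusted p under 0.05, and their log2 fold changes ran from -0.11 to 0.05.

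Some other oxygen-dependent dioxygenases passed, in a fit where edgeR called 122 of all 19565 genes tested higher. Alkbh5, which removes methyl groups from adenines of RNA, was the 1 called gene of 6 TET and nucleic acid oxygenases, at 110, 97.8 and 118 CPM in KO replicates 1, 2 and 3, against 78.1, 71.0 and 77.4 CPM in WT (log2 fold change 0.53, SE 0.0766, edgeR adjusted p = 0.0216). Of 9 HIF subunits and oxygen sensors 2 rose, the HIF prolyl hydroxylases Egln1 (0.54, SE 0.0851, edgeR adjusted p = 0.0309) and Egln3 (1.23, SE 0.146, edgeR adjusted p = 0.00868). All 3 calls were lost without WT replicate 2 (adjusted p = 0.154, 0.208 and 0.0711) or WT replicate 3 (0.108, 0.166 and 0.0681), and those of Alkbh5 and Egln1 also without KO replicate 1 (0.121 and 0.157) or KO replicate 3 (0.147 and 0.203). A sex term rests on WT replicate 2 alone, so that fit in effect repeats leaving this library out (0.149, 0.197 and 0.0734). Without both WT replicates 2 and 3, which leaves 1 WT library, the log2 fold changes were 0.48 for Alkbh5, 0.47 for Egln1 and 1.08 for Egln3. Only sizes are given for that fit, and they do not say that the calls held. The Egln1 call depended on the tool and the libraries as well, with an adjusted p of 0.0501 in limma-voom and 0.057 in edgeR without KO replicate 1 and WT replicate 1. Of 15 textbook HIF target genes 9 rose and 0 fell, namely Pdk1, Bnip3, Vegfa, Ldha, Pgk1, Ak4, P4ha1, Higd1a and Adm, and the median log2 fold change of the 15 was 1.096. The count was 5 without WT replicate 2, where 0.165% of all genes were called higher, and in effect the same fit with a sex term also gave 5. It was 5 without WT replicate 3 (0.2% of all genes called higher). In DESeq2 it was highest, at 13 (1.27%). The fit without both WT replicates 2 and 3 is not among these counts, as it leaves 1 WT library. Kdm3a at 0.74 lay below that median, and above the 0.54 of Egln1. These lists were set with earlier results of the same libraries known, so their direction is not independent evidence.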

How the data were processed

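Whole-brain RNA of 3 KO and 3 WT embryos was sequenced. The processing notes of the submitters name STAR 2.5.2a, featureCounts and DESeq2 1.12.4, and the builds mm10 and hg19 without saying how each was used. Strandedness, annotation and the handling of shared reads are not stated there. The deposited counts are whole reads per gene symbol, not normalized. The authors' second table gives their signal (a mean over libraries), log2 fold change, Wald score and p-value for each gene, per the file headers.

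Genes kept by filterByExpr were scaled by TMM and tested together with the robust quasi-likelihood test of edgeR 4.0.16 in R 4.3.3, KO against WT, and p-values were adjusted by Benjamini-Hochberg over all genes (threshold 0.05). Intervals are 95% intervals of the fitted log2 fold change. Log2 CPM used a prior count of 2. Per-kilobase values used the union of exons in GENCODE M21 on GRCm38, the assembly of mm10. Alternatives included DESeq2 1.42.0 and limma-voom (limma 3.58.1). Members and gene lists were chosen with earlier results of these data known. All 10 members are described. From other lists the genes past the FDR, or the 2 with the lowest p, could be named, and Kdm5a, Kdm5c, Kdm5d, Kdm6a and Uty were added as relatives of members.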

Additional observations from a re-analysis of the deposited data

How the results depend on the processing

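Over 18 alternative fits each of the 10 log2 fold changes stayed positive, except that of Kdm4a, which was -0.015 without the epidermal libraries (KO 1 and WT 1). Members were called higher, and none lower, as follows, with the share of all genes called higher in the same fit. There were 3 in DESeq2's Wald test (1.27%), 3 with the replicate block (1.08%), 2 without the epidermal libraries (1.34%), 2 with the Krt5 covariate (1.3%), 1 with the beta-globin term (1.05%) and 1 with no filter on low counts (0.558%). Leaving out single libraries gave 0 to 1 members (1 without WT replicate 1, 1.16%). The causes were not tested. The block called Kdm3a (edgeR adjusted p = 0.000263), Kdm5b (0.0108) and Jmjd6 (0.00641). Replicate numbers were not taken to pair the samples, since the sources used do not state a pairing. Deviations of the same number correlated at 0.587, 0.310 and 0.034, and KO replicate 2 correlated best with WT replicate 3 (0.478). With 3 libraries in each group, these correlations cannot decide whether the samples were paired. Leaving out the epidermal libraries, KO 1 and WT 1, called Kdm3a (0.0113) and Kdm5b (0.0275). The kept libraries still differed in epidermal markers, at 10.7 and 49.7 CPM in KO 2 and KO 3, against 10.2 and 4.55 CPM in WT 2 and WT 3. Both kept WT libraries are the Hox-expressing ones. The edgeR adjusted p of Kdm3a was 0.0874 to 0.431 without single libraries, that of Kdm5b 0.0312 to 0.409 and that of Jmjd6 0.138 to 0.585. Of the other JmjC genes, Kdm7a was the 1 called with the replicate block and the 1 called without the epidermal libraries.

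Over all genes, 129 passed as reported, 313 in DESeq2's Wald test, 282 with the replicate block, 211 with no filter, 459 without the epidermal libraries, 20 without the Hox-expressing libraries (WT 2 and WT 3), 37 with a sex term resting on 1 library, 323 with the Krt5 covariate, 236 with the beta-globin term, 49 at an FDR of 0.01, and 36 to 388 without single libraries. The fit without WT 2 and WT 3 assumes that the lone WT library varies like the KO libraries. With the longest transcript as length, paralog ratios were 1.80 in KO and 1.14 in WT for Kdm3a over Kdm3b, 1.32 and 1.39 for Kdm2b over Kdm2a, 0.858 and 0.771 for Kdm4b over Kdm4a, and 0.209 and 0.197 for Kdm4c over Kdm4a.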
